A study of Rattus norvegicus with 18 samples.

Results

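The mitochondrial genome encodes a small set of respiratory chain proteins, and 10 of these genes were followed in kidney: mt-Nd1, mt-Nd2, mt-Nd4, mt-Nd5, mt-Nd6, mt-Cytb, mt-Co1, mt-Co2, mt-Co3 and mt-Atp6. They were taken from the deposited count table by a fixed list of mouse Ensembl identifiers. That list was chosen with earlier results of these data known. All 10 were found among 55335 identifiers, and all 10 were among the 19233 that passed the filter on low counts. Kidney RNA was sequenced in 18 libraries, 6 per group, with 1 animal per library according to the series description. Treated animals (Treat) had diabetic nephropathy, induced with a high-fat diet and injection of STZ (streptozotocin), and received TSK by mouth at 500 mg/kg per day for 4 weeks. TSK is named in the labels only by this abbreviation. Model animals (DN) had the same diet and STZ without TSK, and control animals (Ctrl) had ordinary feed and solvent by gavage. The labels give no strain, sex or age.

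The labels name the organism as rat, whereas the identifiers are of mouse, and so are the builds GRCm38 and mm10 that the submitters' processing notes list. If the animals were rats, reads that differ from mouse mitochondrial sequence may have been lost to a different extent for each gene, which was not tested. The kidney origin could not be checked against marker genes, because 0 of 55335 identifiers matched the rat gene table used here.

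Respiratory chain complexes in the inner mitochondrial membrane pass electrons from NADH and other donors to oxygen and pump protons, and ATP synthase uses the resulting gradient. Most subunits come from nuclear genes, while the core membrane subunits of complexes I, III and IV and of ATP synthase come from mitochondrial DNA. Mitochondrial genes are transcribed as long precursors from either strand and are cut apart at the tRNAs between them. Among the 10 genes, mt-Nd6 alone is encoded on the light strand and lies between mt-Nd5 and mt-Cytb, which are encoded on the other strand. In human mitochondria, the ND6 transcript is described as lacking the poly(A) tail that the other messengers carry. Tubule cells, above all those of the proximal tubule and thick ascending limb, are rich in mitochondria.

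Total counts were 22040987 to 28135824 in Treat, 25505257 to 35275498 in DN and 26312358 to 34140706 in Ctrl. Treat library 1 and Ctrl library 4 stood apart from the other libraries on the second principal component of log2 CPM, the counts scaled to library size (78.8 and 54.2, against -26.8 to 25.2). Ctrl library 4 also stood apart from the other 5 controls for 6 identifiers. For these, the 5 controls were at least 8-fold above or below that library and every DN and Treat library. The same search gave 0 or 1 identifiers with any other control in its place. The calls below are therefore also given without these libraries.

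The 10 genes together made up a large part of the sequenced RNA in every library. Their summed share of library counts ranged over 16.3% to 20.1% in Treat (median 17.9%), 18.3% to 22.4% in DN (median 19.6%) and 15.9% to 18.2% in Ctrl (median 17.5%). All 6 DN libraries lay above all 6 Ctrl libraries, while the Treat libraries overlapped with both groups. The gap was narrow, from 18.2% in Ctrl library 1 to 18.3% in DN library 4. It was lost under 2 other ways of counting that are given below. How often sums over other genes part these groups was not determined. The means were 18.02% ± 1.55 in Treat, 19.8% ± 1.44 in DN and 17.3% ± 0.789 in Ctrl (SD, n = 6 each). No test is given for this sum, since the genes were chosen with earlier results known. The highest share was that of DN library 5 and the lowest that of Ctrl library 4. On the log2 scale the mean sum differed by 0.19 between DN and Ctrl, by 0.17 without Ctrl library 4 and by 0.16 without DN library 5. Counting error was negligible, with 95% Wilson intervals no wider than 0.0158 percentage points on either side. In bulk tissue, a different proportion of mitochondria-rich cells and a different amount of mitochondrial RNA per cell cannot be told apart.

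**Figure D1:**
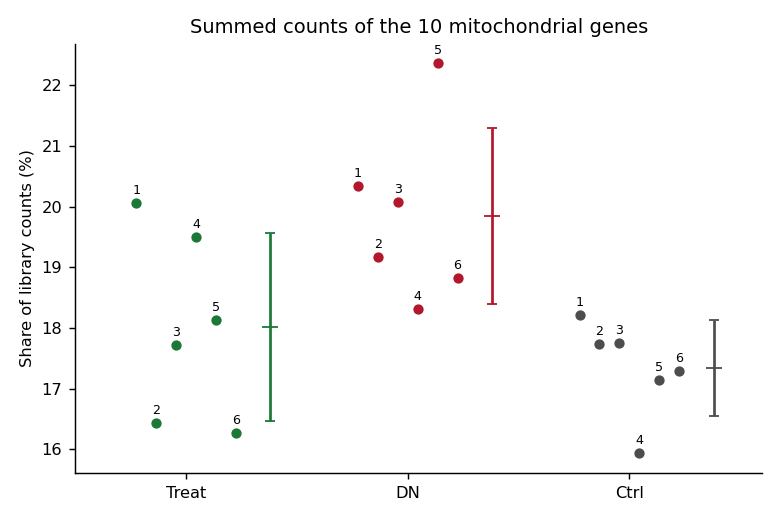
Summed counts of the 10 mitochondrial genes as a percentage of all gene counts (vertical axis, not starting at 0) in each library, by group. Points are libraries marked with their replicate number, and bars give the mean and SD (n = 6). DN libraries lie between 18.3% and 22.4%, above all Ctrl libraries (15.9% to 18.2%), and Treat libraries (16.3% to 20.1%) overlap both. With TMM scaling or with counterpart rows added, both described below, DN and Ctrl overlap.

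The DN and Ctrl kidneys were compared to see what the diet and STZ changed. Of the 10 genes, 2 were called higher in DN, 0 were called lower, and 8 did not pass the test (edgeR quasi-likelihood test, Benjamini-Hochberg adjusted p under 0.05 over all genes). Among all 19233 genes tested, 16.9% were called higher and 15.3% lower, so a count of 2 in 10 is near the background. The called genes were mt-Nd6 and mt-Nd5, both subunits of the proton-pumping arm of complex I. The fitted log2 fold change was positive for all 10 genes, with a median of 0.25, against 0.0079 over all genes. All log2 fold changes here are on counts scaled with TMM factors, which assume that most genes do not change, whereas the shares are of the unscaled library total. With TMM scaling the summed counts of DN and Ctrl overlapped, at 187704 CPM in DN library 6 and 189830 CPM in Ctrl library 1.

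The gene mt-Nd6 (ENSMUSG00000064368) showed the largest fold change of the 10. Its share of library counts had its lowest, median and highest value at 0.599%, 0.675% and 0.749% in DN, and at 0.378%, 0.409% and 0.497% in Ctrl. Every DN library lay above every Ctrl library, in share and in CPM. Of the 10 genes, it was the only one without overlap between these groups in CPM, which occurred upward in 8.34% and downward in 7.89% of all genes tested. In shares, 7.42% of the genes lay wholly above Ctrl. In CPM it averaged 7004 ± 840 in DN and 4328 ± 543 in Ctrl (SD, n = 6 each). It was 1.62-fold higher in DN, which is a log2 fold change of 0.69 (SE 0.10), with an adjusted p of 7.69e-05. The call held in all 29 alternative settings tried, with log2 fold changes of 0.62 to 0.80. Ctrl library 4, at 0.421%, lay within the range of the other controls, and leaving it out gave 0.67 on the log2 scale (adjusted p = 0.000226). Without Treat library 1 as well the value was 0.67 (adjusted p = 0.000138).

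The second called gene, mt-Nd5 (ENSMUSG00000064367), encodes a large subunit of the membrane arm of complex I. Its share was 1.42%, 1.86% and 2.11% in DN (lowest, median, highest) and 1.28%, 1.36% and 1.65% in Ctrl. DN library 3, at 1.42%, lay within the Ctrl range, and the other 5 DN libraries lay above it. The gene was 1.32-fold higher in DN, which is a log2 fold change of 0.40 (SE 0.11), with an adjusted p of 0.0102. Without Ctrl library 4 its fitted log2 difference was 0.37 (adjusted p = 0.0226), and without Treat library 1 as well it was 0.36 (adjusted p = 0.0129). The call was lost only when Ctrl library 4 alone served as the reference (adjusted p = 0.161), a fit chosen after seeing the data.

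The other complex I genes, mt-Nd1 (ENSMUSG00000064341), mt-Nd2 (ENSMUSG00000064345) and mt-Nd4 (ENSMUSG00000064363), encode further subunits of its membrane arm. Shares of mt-Nd1 were 1.42% to 1.94% in DN (median 1.56%) and 1.26% to 1.47% in Ctrl (median 1.37%). Its log2 fold change was 0.27 (SE 0.11, adjusted p = 0.0601). All 6 DN libraries were above the Ctrl median, but the groups overlapped. Shares of mt-Nd2 were 1.19% to 1.52% in DN (median 1.23%) and 1.15% to 1.23% in Ctrl (median 1.18%). Those of mt-Nd4 were 1.52% to 1.95% in DN (median 1.69%) and 1.45% to 1.61% in Ctrl (median 1.55%). Log2 fold changes of mt-Nd2 and mt-Nd4 were both 0.17 (adjusted p = 0.186 and 0.175), and DN libraries 3 and 5 were the highest for each.

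The complex III subunit cytochrome b, mt-Cytb (ENSMUSG00000064370), carries the haem groups that take part in ubiquinol oxidation. Its share was 2.36% to 3.24% in DN (median 2.61%) and 2.19% to 2.39% in Ctrl (median 2.35%). The log2 fold change of 0.25 (SE 0.10) did not pass the test (adjusted p = 0.0759). DN library 4 was the only DN library within the Ctrl range.

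Cytochrome c oxidase, complex IV, has its 3 core subunits encoded by mt-Co1 (ENSMUSG00000064351), mt-Co2 (ENSMUSG00000064354) and mt-Co3 (ENSMUSG00000064358), of which mt-Co1 holds the site where oxygen is reduced. The share of mt-Co1 was 5.69% to 6.66% in DN (median 6.15%) and 4.99% to 6.19% in Ctrl (median 5.90%), and its log2 fold change of 0.12 was the smallest of the 10 (adjusted p = 0.358). Shares of mt-Co3 were 1.13% to 1.62% in DN (median 1.28%) and 0.988% to 1.16% in Ctrl (median 1.15%), with a log2 fold change of 0.29 (SE 0.12, adjusted p = 0.0601). DN library 6 lay inside the Ctrl range for this gene and DN library 4 at its upper edge. Shares of mt-Co2 were 0.958% to 1.37% in DN (median 1.08%) and 0.940% to 1.05% in Ctrl (median 1.005%; log2 fold change 0.21, adjusted p = 0.138). Of ATP synthase, mt-Atp6 (ENSMUSG00000064357), which forms part of the proton channel, had shares of 1.16% to 1.66% in DN (median 1.30%) and 1.05% to 1.20% in Ctrl (median 1.19%; log2 fold change 0.24, adjusted p = 0.102).

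How many of these near-threshold genes were called depended on the fit. With DESeq2, mt-Nd1, mt-Cytb and mt-Co3 passed as well, which made 5 of 10, against 14.8% of all genes. The count was 4 without Treat library 1, 4 without DN library 4 and 5 without DN library 6, where 18.3%, 16.1% and 17.9% of all genes were called higher. The 10 genes were correlated across libraries, so such counts are not counts of separate results. No setting called any of the 10 genes lower in DN. The fold changes of the 8 uncalled genes depended on DN library 5, and without it each was at least 1.60 times smaller. The log2 fold change without that library was 0.077 for mt-Nd2, 0.085 for mt-Nd4, 0.067 for mt-Co1, 0.11 for mt-Co2 and 0.12 for mt-Atp6. It was 0.14 for mt-Cytb, 0.17 for mt-Nd1 and 0.18 for mt-Co3, and the adjusted p of the 8 genes lay between 0.212 and 0.656. For mt-Nd5 it was 0.35 (adjusted p = 0.0263) and for mt-Nd6 0.62 (adjusted p = 0.000256), so both remained called. Without Ctrl library 4, or without it and Treat library 1, the same 2 genes were called, and mt-Co1 was at 0.069 and 0.062.

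**Figure D2:**
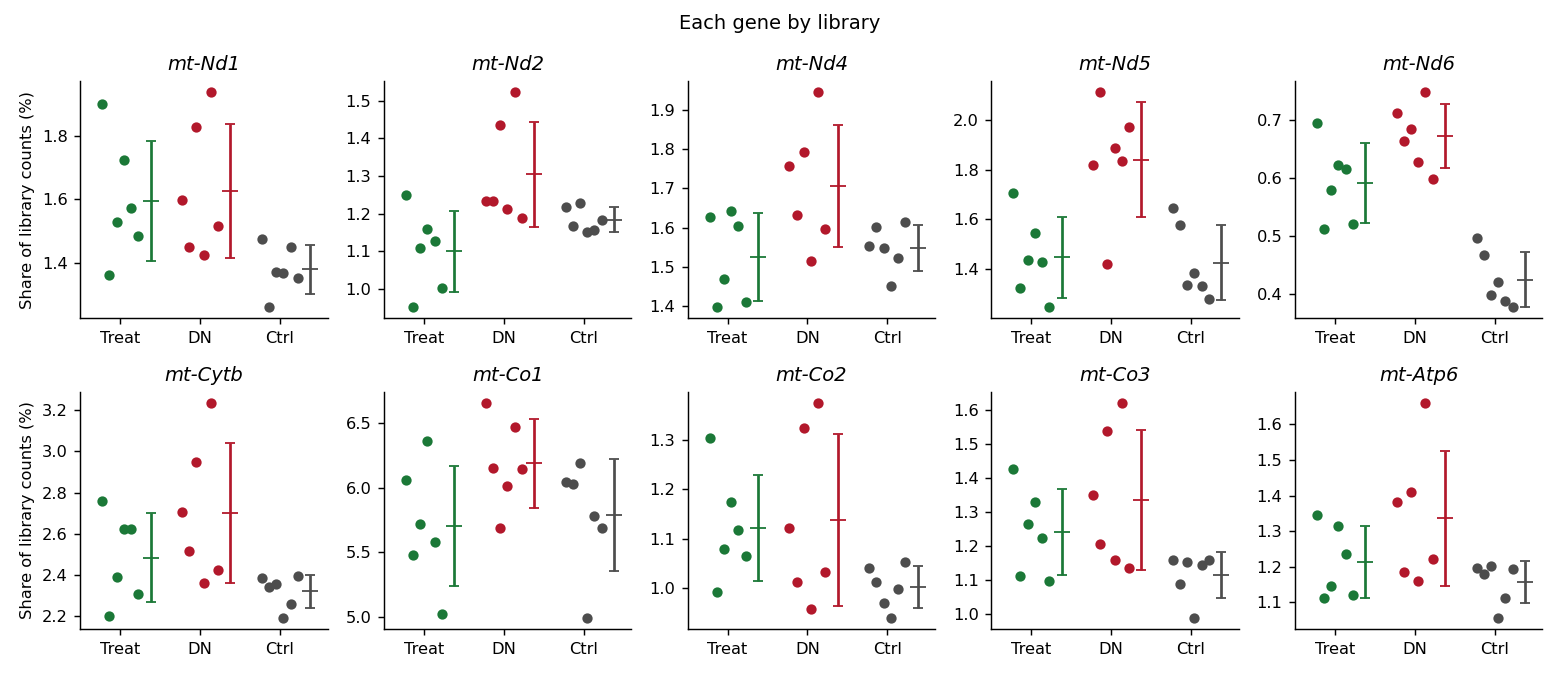
Share of library counts in percent (vertical axes, a separate scale per panel, not starting at 0) of each of the 10 genes in every library, by group. Points are libraries, and bars give the mean and SD (n = 6). For mt-Nd6 the DN libraries (0.599% to 0.749%) and Treat libraries (0.512% to 0.696%) all lie above the Ctrl libraries (0.378% to 0.497%), while for the other genes the groups overlap.

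The rows of mt-Co2, mt-Co3 and mt-Atp6 each had a near-identical counterpart in the table, without a name in the files. ENSMUSG00000102070 held 0.9986 to 0.9995 of the mt-Co2 count in each library, and ENSMUSG00000101111 held 0.9981 to 0.9999 of the mt-Co3 count. ENSMUSG00000100862 held 1.05 to 1.07 times the mt-Atp6 count (Pearson r = 0.999 of log2 CPM over 18 libraries). Levels of these 3 genes are uncertain, since the same reads may have been counted in either row or in both. Reads counted in both rows would also enter the library totals more than once. The counterparts held a further 3.27% to 4.14% of library counts in Treat, 3.34% to 4.73% in DN and 3.05% to 3.48% in Ctrl. With them added, the same number of genes was called in each comparison. The summed shares of DN and Ctrl then overlapped, at 21.67% in DN library 4 and 21.69% in Ctrl library 1. The start of mt-Atp6 overlaps mt-Atp8 and that of mt-Nd4 overlaps mt-Nd4l, and reads over such overlaps cannot be assigned. The strand setting of the counting is not given in the sources used here, so reads from mt-Nd6 and from the opposite strand at its position cannot be told apart.

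Treat and DN kidneys were compared for the effect of TSK in the model. All 10 genes had a lower mean share and a negative log2 fold change in Treat, with a median log2 fold change of -0.27, against -0.0051 over all genes. Only mt-Nd5 passed the test, as lower in Treat, and 9 did not. Over all genes, 0.858% were called lower and 0.536% higher. With an unadjusted p under 0.05 in the same test, 8 of the 10 genes were lower, against 9.03% of all genes. The 10 genes were correlated across libraries (median Pearson r of 0.76 over 45 pairs), so these are not 10 separate results. That count also rests on TMM scaling. With library totals, described below, all 10 fold changes lay nearer to 0 and 0 genes were called lower. This comparison uses the same DN libraries as that of DN with Ctrl, so a chance high value in DN would move both.

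The share of mt-Nd5 was 1.25%, 1.43% and 1.71% in Treat (lowest, median, highest), against 1.42%, 1.86% and 2.11% in DN. Of the DN libraries, 5 lay above all Treat libraries, and DN library 3 lay below the Treat median. In CPM it averaged 13711 ± 1351 in Treat and 19115 ± 2526 in DN (SD, n = 6 each). It stood at 0.717 times the DN level in Treat, which is a log2 fold change of -0.48 (SE 0.11), with an adjusted p of 0.0383. The direction was the same in all 29 alternative settings, but the call was lost in 14, including scaling by library totals (log2 fold change -0.35, adjusted p = 0.0591) and a replicate block (adjusted p = 0.0830). It was also lost without Treat library 2, 3, 5 or 6, without DN library 1, 2, 4, 5 or 6, or without Ctrl library 6 (adjusted p of 0.0505 to 0.0906). Without both Ctrl library 4 and Treat library 1 it held, at -0.49 (adjusted p = 0.0194).

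For mt-Nd2 the Treat and DN libraries did not overlap in CPM, which occurred downward in 1.03% and upward in 0.770% of all genes tested. It had 9226 to 11597 CPM in Treat and 11860 to 17185 CPM in DN. Its log2 fold change was -0.38 (SE 0.10), and its adjusted p was 0.0574. It passed without Treat library 1 (adjusted p = 0.0349). Without both Treat library 1 and Ctrl library 4 its adjusted p was 0.0447. In shares of library counts the groups did overlap, at 0.952% to 1.25% in Treat and 1.19% to 1.52% in DN. DESeq2 called mt-Nd2, mt-Nd4, mt-Nd5 and mt-Nd6 lower, 4 of 10, against 2.33% of all genes.

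The share of mt-Nd6 was 0.512%, 0.598% and 0.696% in Treat, against 0.599%, 0.675% and 0.749% in DN. The groups overlapped, and the log2 fold change of -0.32 (SE 0.10) did not pass the test (adjusted p = 0.124). Shares of mt-Nd4 were 1.40% to 1.64% in Treat (median 1.54%) and 1.52% to 1.95% in DN, with a log2 fold change of -0.30 (adjusted p = 0.124). The genes mt-Nd1 and mt-Co2 differed least, with log2 fold changes of -0.17 and -0.16 (adjusted p = 0.465 and 0.498). Shares of mt-Nd1 in Treat were 1.36% to 1.90% (median 1.55%) and those of mt-Co2 were 0.992% to 1.30% (median 1.10%). For mt-Cytb, mt-Co1, mt-Co3 and mt-Atp6, log2 fold changes lay between -0.28 and -0.24, with adjusted p values of 0.215 to 0.305. Leaving out DN library 5 brought all 10 values nearer to 0, by over 1.5 times for 5 of them. They were then -0.061 for mt-Nd1, -0.048 for mt-Co2, -0.15 for mt-Cytb, -0.13 for mt-Co3 and -0.16 for mt-Atp6, and none of the 10 genes was called (lowest adjusted p 0.0598, for mt-Nd5).

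The size of the difference between Treat and DN depended on the scaling. TMM factors were 0.9997 to 1.15 in Treat and 0.886 to 1.003 in DN, and the Treat libraries were shallower. When library totals replaced the TMM factors, the log2 fold changes of the 10 genes were smaller, from -0.35 for mt-Nd5 to -0.020 for mt-Co2. The median of all genes then lay at 0.13. Over all genes, 641 were then higher and 121 lower in Treat, against 103 higher and 165 lower with TMM. DN library 5, which had the highest summed share, also had the lowest TMM factor, 0.886. With the 10 genes and their counterparts left out of the scaling, mt-Nd5 alone was called lower, at -0.48 (edgeR, adjusted p = 0.0373). What part depth and the other library properties had in the result was not tested.

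**Figure D3:**
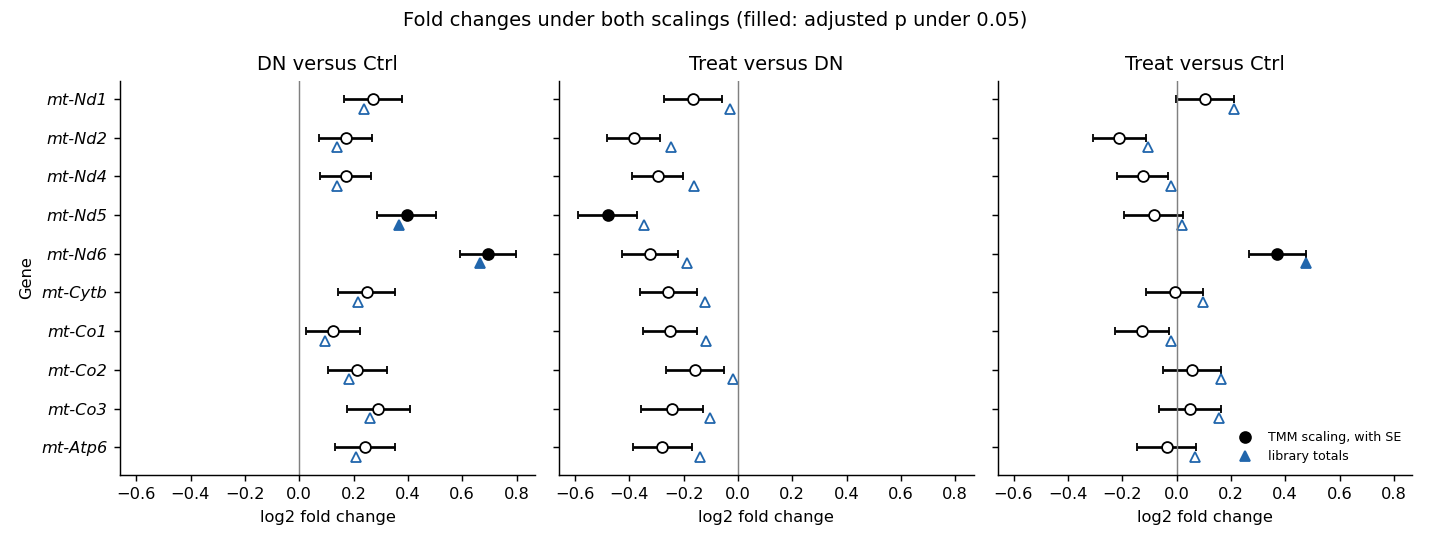
Log2 fold changes (horizontal axes) of the 10 genes in the 3 comparisons. Circles are TMM-scaled edgeR estimates with bars of 1 SE, triangles are estimates from library totals, and filled symbols passed an adjusted p under 0.05. With either scaling mt-Nd6 was called higher in DN and in Treat than in Ctrl, whereas mt-Nd5 was called lower in Treat than in DN with TMM only.

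Treat and Ctrl kidneys were compared for differences that remained under TSK. Only mt-Nd6 was called, as higher in Treat, while 9 of the 10 genes did not pass and 0 were called lower. Over all genes, 23.0% were called higher and 21.9% lower, so the called share of the 10 genes was not above the background. The share of mt-Nd6 was 0.512%, 0.598% and 0.696% in Treat, against 0.378%, 0.409% and 0.497% in Ctrl. In shares, every Treat library lay above every Ctrl library, whereas in CPM the groups overlapped. Of all genes, 14.9% lay wholly above Ctrl in shares, and in CPM 11.5% lay wholly above and 13.2% wholly below. The log2 fold change was 0.37 (SE 0.10, adjusted p = 0.00756), and 0.48 with library totals (adjusted p = 0.000491). Without Ctrl library 4 it was 0.35 (adjusted p = 0.0167), and without Treat library 1 as well it was 0.34 (adjusted p = 0.0193). With Ctrl library 4 alone as the reference, it was 0.47 and the call was lost (adjusted p = 0.148).

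For the other genes the median log2 fold change between Treat and Ctrl was close to 0, and the sign of several depended on the scaling. Over all 10 genes the median was -0.022 with TMM, against 0.023 over all genes tested. The lowest was that of mt-Nd2, -0.21 (adjusted p = 0.0854), with shares of 0.952% to 1.25% in Treat (median 1.12%) and 1.15% to 1.23% in Ctrl. With library totals, mt-Nd5 (0.022), mt-Cytb (0.097) and mt-Atp6 (0.068) turned from negative to positive. The median of all genes moved to 0.12, and 5651 genes were higher and 3140 lower, against 4415 and 4214 with TMM. Shares of mt-Cytb were 2.20% to 2.76% in Treat (median 2.51%), and those of mt-Co1 were 5.02% to 6.36% (median 5.65%). Shares of mt-Co3 were 1.10% to 1.43% in Treat (median 1.24%), and those of mt-Atp6 were 1.11% to 1.35% (median 1.19%). All 4 overlapped with Ctrl.

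The makeup of the mitochondrial counts, which does not depend on the scaling of the library, differed from Ctrl most for mt-Nd6, in DN as in Treat. It made up 3.27% ± 0.135 of the 10-gene sum in Treat, 3.39% ± 0.115 in DN and 2.45% ± 0.246 in Ctrl (SD, n = 6 each). The lowest Treat and DN libraries, at 3.11% and 3.18%, lay above the highest Ctrl library, at 2.73%, while Treat and DN overlapped. Set against each of the other 9 genes in turn, the mt-Nd6 count was higher in all DN than in all Ctrl libraries for 8 denominators. It was higher in all Treat than in all Ctrl libraries for 8 as well. The exception for DN was mt-Nd5 and that for Treat was mt-Nd1, and Treat and DN overlapped for all 9. All 9 ratios share the mt-Nd6 count, so they are not 9 separate results. How often ratios among other genes part the groups in this way was not determined. As a percentage of the count of the neighbouring mt-Cytb, mt-Nd6 stood at 22.6% to 25.2% in Treat, 23.1% to 26.6% in DN and 15.8% to 20.9% in Ctrl.

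Between Treat and DN the makeup differed most for mt-Nd5, which made up 8.02% ± 0.281 of the sum in Treat, 9.34% ± 1.52 in DN and 8.22% ± 0.739 in Ctrl (SD, n = 6 each). The complex IV gene mt-Co1 made up 31.7% ± 1.23 of the sum in Treat, 31.3% ± 2.06 in DN and 33.3% ± 1.21 in Ctrl. The share of mt-Atp6 in the sum was 6.73% ± 0.145 in Treat, 6.71% ± 0.469 in DN and 6.67% ± 0.152 in Ctrl. In Treat, mt-Nd2 made up 5.79% to 6.26% of the sum, below all controls (6.59% to 7.22%), and mt-Co3 made up 6.74% to 7.14%, above all controls (6.14% to 6.71%). Since these are parts of a whole, a larger part of 1 gene lowers the others.

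**Figure D4:**
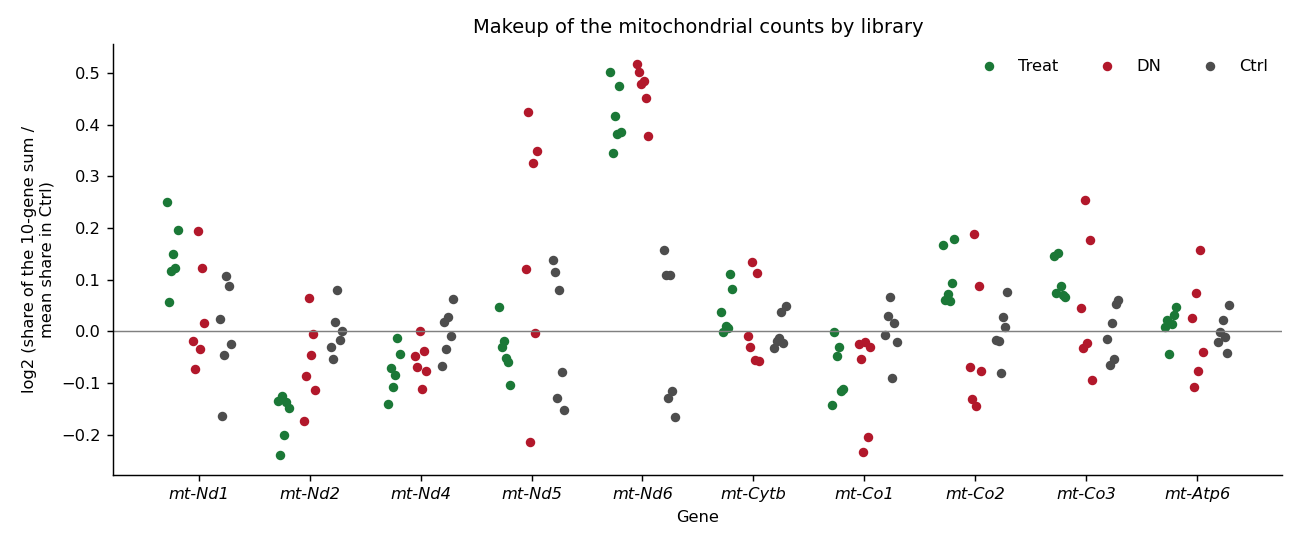
Log2 ratio of each gene's share of the 10-gene sum to its mean share in Ctrl (vertical axis), with each point a library, coloured by group. For mt-Nd6 all Treat and DN libraries lie above all Ctrl libraries (3.11% to 3.51% of the sum against 2.18% to 2.73%), and mt-Nd5 has the widest spread within DN (7.08% to 11.03%).

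The association of mt-Nd5 with most of the other genes was weaker once group means were removed. The 10 genes were correlated across the 18 libraries with a median Pearson r of 0.76 over 45 pairs of log2 CPM (0.37 to 0.98), a description of values that share libraries, depth and scaling. After subtraction of the group means, the median r of mt-Nd5 with the other 9 genes was 0.23, against 0.62 to 0.95 for each of the other genes. It was 0.62 with mt-Co1 and 0.60 with mt-Nd6, and 0.067 to 0.26 with the other 7. The part of mt-Nd5 in the 10-gene sum varied most in DN (coefficient of variation 16.3%, against 3.51% in Treat and 8.99% in Ctrl). DN library 3 had the lowest mt-Nd5 share of its group (1.42%), while for 7 of the 10 genes it ranked among the 3 highest of the 18 libraries. The coefficient of variation of the shares between animals had a median of 9.68% in Treat, 12.6% in DN and 5.39% in Ctrl.

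Counts of mt-Nd6 and mt-Nd5, neighbours on opposite strands, stood in a nearly fixed ratio in the controls. The mt-Nd6 count was 38.6% to 43.1% of the mt-Nd5 count in Treat, 30.4% to 48.2% in DN and 29.05% to 30.4% in Ctrl. All Treat libraries lay above all Ctrl libraries, whereas DN spanned a wider range whose lowest value, in DN library 6, fell within that of the controls. The ratio averaged 40.8% ± 1.52 in Treat, 37.2% ± 6.83 in DN and 29.8% ± 0.481 in Ctrl (SD, n = 6 each). It was the tightest in Ctrl of the 9 ratios of mt-Nd6 to another gene. Its coefficient of variation there was 1.62%, against 10.9% to 13.3% for the rest. The strand setting of the counting is not known, and its part in this ratio was not tested.

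**Figure D5:**
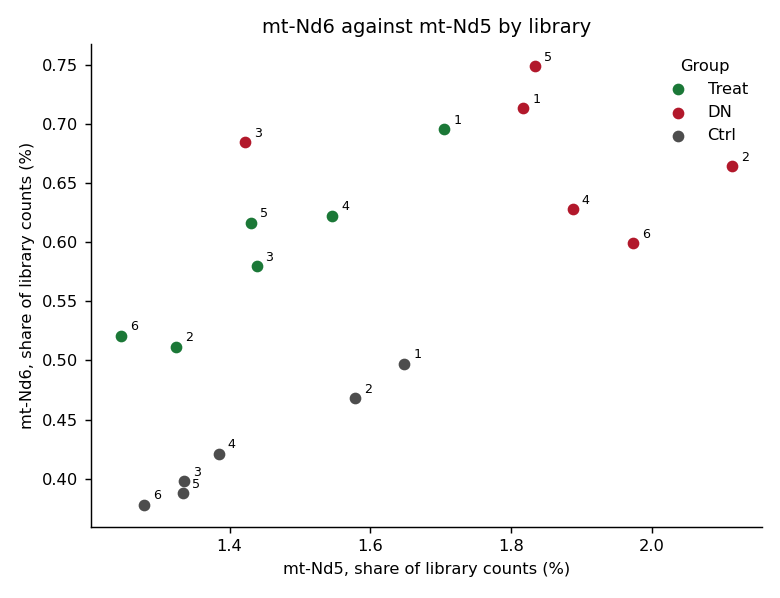
Share of library counts in percent of mt-Nd6 (vertical axis) against mt-Nd5 (horizontal axis), with neither axis starting at 0. Points are libraries marked with their replicate number and coloured by group. The Ctrl libraries lie along a line (mt-Nd6 at 29.05% to 30.4% of mt-Nd5), with the Treat libraries above it (38.6% to 43.1%) and the DN libraries spread from that line upward (30.4% to 48.2%).

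Of 19220 genes tested other than the 10 and their 3 counterpart rows, those most like the mean log2 CPM of the 10 genes over the 18 libraries were ENSMUSG00000100863 (Pearson r = 0.88) and ENSMUSG00000064369 (r = 0.85). ENSMUSG00000064369 averaged 400.2 ± 42.5 CPM in Treat, 493.5 ± 92.7 in DN and 316.7 ± 32.6 in Ctrl, with an adjusted p of 0.000342 for DN against Ctrl. ENSMUSG00000100863 was a low row, with 6.90 ± 0.590 CPM in Treat, 8.30 ± 1.29 in DN and 6.42 ± 0.812 in Ctrl. The most opposed were ENSMUSG00000030536 (r = -0.84) and ENSMUSG00000033732 (r = -0.83). The files give no names for these identifiers, and the correlations are descriptions without a test. By number, ENSMUSG00000064369 falls between the identifiers of mt-Nd6 and mt-Cytb, and ENSMUSG00000100863 follows that of the mt-Atp6 counterpart. Whether these rows share reads or transcripts with the 10 genes was not tested.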

How the data were processed

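Messenger RNA of kidney was sequenced in 18 libraries. Per the labels' protocols, 1.3 µg of total RNA went into each SMARTER mRNA library. The authors deposited raw counts per gene identifier, 1 column per library, without normalization. The builds were GRCm38 and mm10, per the submitters' processing notes, and the aligner, the counter and any use of strand are not stated there or in the labels. Columns were matched to samples by library name, and groups came from titles.

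The analysis used edgeR 4.0.16 in R 4.3.3 (filterByExpr, TMM factors, glmQLFit and glmQLFTest, all 18 libraries, no covariate), with p-values adjusted over all 19233 genes tested. DESeq2 1.42.0 was an alternative. The common biological coefficient of variation was 0.273. Standard errors were derived from F statistics, and a prior count of 2 entered log2 CPM. Counterpart rows were those within 3% of a gene's count in every library, or with a Pearson r of at least 0.99 and at least 1% of its counts. On simulated data for DN versus Ctrl (18923 genes), the fit called 7 of 50 genes changed 1.3-fold, 25 of 50 changed 1.5-fold and 49 of 50 changed 2-fold. The changed genes were drawn at random and were few, whereas many genes were called in the real comparison. These counts therefore do not give the chance of a call for the 10 genes. All 10 genes are named, with the 2 most like and the 2 most opposed identifiers. The genes and lists were chosen with earlier results of these data known. Lists of nuclear-encoded subunits and of cell type markers could not be used, since 0 identifiers matched a symbol. Levels are not compared between genes, because gene lengths were not used here. No replicate pair within a group matched within counting noise (chi-square per degree of freedom of 11.8 or more).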

Additional observations from a re-analysis of the deposited data

How the results depend on the processing

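Each gene had at least 110769 counts in every library, so counting error was small beside the spread between animals. The number of the 10 genes called higher in DN than in Ctrl was 2, 5 with DESeq2, 2 to 5 with single libraries left out, and 1 with the division of the controls as a covariate (chosen after seeing the data). The number called lower in Treat than in DN was 1, and 4 with DESeq2. It was 0 with library totals, 0 without a filter, 0 with only the 12 libraries compared, 0 with a replicate block, 0 to 2 with single libraries left out, and 2 without Ctrl library 4 and Treat library 1. The number called in Treat against Ctrl was 1 higher and 0 lower. It became 0 higher with the division of the controls, and 0 to 1 lower with single libraries left out (mt-Nd2, without DN library 5, adjusted p = 0.0473). The causes were not tested.

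On the log2 scale, the summed share differed by -0.14 between Treat and DN, and by -0.27 with TMM-scaled totals. Between Treat and Ctrl it differed by 0.052, by -0.050 with TMM-scaled totals, and by -0.0042 without Ctrl library 4 and Treat library 1. Between Treat and Ctrl, genes not called turned sign. With library totals mt-Nd5 was at 0.022, mt-Cytb at 0.097 and mt-Atp6 at 0.068. With the division of the controls mt-Nd4 was at 0.058, mt-Nd5 at 0.048, mt-Cytb at 0.16, mt-Co1 at 0.18 and mt-Atp6 at 0.19. For mt-Cytb the value was 0.0030 without a filter, 0.00081 when genes needed CPM above 1 in 6 libraries, 0.019 with only the 12 libraries compared, and -0.042 to 0.019 with single libraries left out. Without Ctrl library 4 and Treat library 1, mt-Co3 was at -0.0045.

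Replicate numbers did not pair the libraries. Deviations from the group means of same-numbered libraries correlated at -0.19 to 0.071 (DN and Ctrl), -0.12 to 0.19 (Treat and DN) and -0.19 to 0.042 (Treat and Ctrl), and 0, 2 and 0 of 6 libraries correlated best with their own number. Apart from mt-Nd5 in Treat against DN (adjusted p = 0.0830), the replicate block changed no call among the 10 genes. Over all genes, the counts in Treat against DN of 103 higher and 165 lower became 398 and 439 with DESeq2, 35 and 84 without a filter, 49 and 67 with only the 12 libraries compared, 36 and 81 with the replicate block, 231 and 362 without Ctrl library 4 and Treat library 1, and 27 to 140 and 70 to 306 with single libraries left out. In DN against Ctrl, 3254 higher and 2948 lower became 451 and 535 with the division of the controls, and in Treat against Ctrl, 4415 and 4214 became 750 and 1112.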
